A study of Arabidopsis thaliana with 47 samples.

Results

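The 10 libraries described here compare Arabidopsis thaliana roots that carry a cysteine-to-serine form of PLETHORA2 (PLT2) with roots of the plt2 mutant, both given 0.3 nM RGF1. They are 10 of the 47 RNA-seq libraries of the series and were chosen by genotype and treatment label, with 5 libraries in each group. The first group is plt2/gPLT2C212S-GFP, written gPLT2C212S below: plt2 plants with a genomic PLT2 transgene that carries the C212S substitution and a green fluorescent protein tag. The second group is plt2 without a transgene. Both groups therefore share the plt2 background, were 6 days old, and had 24 h in 1/2 MS medium with the peptide before the meristematic zone of 50 roots was cut out and pooled for each RNA sample. The series addresses the stability of PLT2 protein in root development, and it also holds both lines under mock treatment and at 5 nM RGF1, and a line with the unaltered transgene, plt2/gPLT2-GFP (gPLT2), under each treatment. The plt2 allele, the number of independent transgenic lines behind each name and the hour of harvest are not given in the sources used here. The labels number the replicates without saying that they came from separate cultures, so the p-values measure the spread between these libraries.

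RGF1 is a secreted, tyrosine-sulfated peptide that sustains the root meristem. It is cut from a precursor protein, sulfated by the enzyme TPST, and perceived by leucine-rich repeat receptor-like kinases at the cell surface. Its known output is the abundance and spread of PLETHORA proteins, AP2-domain transcription factors that form a dose gradient from the stem cell niche.

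The libraries held 7739807 to 9515054 counted reads, of which 2818802 to 5116600 lay outside 14 ribosomal RNA and organelle loci. A pair of mitochondrial loci took 45.0% to 63.2% of the reads in gPLT2C212S and 55.9% to 64.1% in plt2. Levels below are CPM, counts scaled to the reads of each library outside the 14 loci and by TMM, a normalization that assumes most genes do not differ. A gene is called, and said to rise or fall, where edgeR's quasi-likelihood test gave an adjusted p under 0.05, and log2 fold changes are gPLT2C212S minus plt2 with their standard error (SE). PIN2, an auxin carrier expressed in the root meristem, stood at 403 ± 27.7 CPM in plt2 and 386 ± 11.3 CPM in gPLT2C212S (SD, n = 5). Whether the cut zones matched between the groups was not tested. In bulk tissue, fewer cells of a type and less RNA per cell cannot be told apart, and this holds for every marker below.

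PLT2 RNA was 6.94-fold higher in gPLT2C212S. In plt2 it stood at 6.07, 5.28, 12.5, 6.41 and 6.07 CPM in replicates 1 to 5, and in gPLT2C212S at 53.1, 49.9, 47.9, 44.5 and 56.5 CPM. The groups did not overlap, and plt2 replicate 3 was the highest of its group. The log2 fold change was 2.79 (SE 0.18, adjusted p = 1.17e-10). Reads of the transgene and of the plt2 locus are counted together, so the 7.26 ± 2.95 CPM (SD, n = 5) left in plt2 is RNA counted at the mutant locus. The substituted residue is encoded in coding exon 3 of 8, on chromosome 1 of TAIR10.1 at chr1:18978444-18978526, plus strand. The exon is shown from RefSeq because it is the site at which the transgene differs from gPLT2. The cysteine codon 212 of the 568-residue protein, bases 18978490 to 18978492, is in capitals.
PLT2 coding exon 3: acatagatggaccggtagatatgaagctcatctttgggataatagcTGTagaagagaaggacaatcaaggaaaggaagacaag

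The other PLETHORA genes were lower in gPLT2C212S. Of the 8 PLETHORA and AINTEGUMENTA-like genes, 4 had enough reads to be tested, PLT2 rose, and PLT1, PLT3 and BBM fell. Across all 16019 genes tested, 46.4% were called, 22.2% higher and 24.2% lower. PLT1, the close paralogue that acts redundantly with PLT2, had 31.6, 36.4, 46.9, 49.0 and 28.0 CPM in plt2 and 6.94, 8.47, 2.85, 8.62 and 6.06 CPM in gPLT2C212S. All plt2 libraries lay above all gPLT2C212S libraries, with a log2 fold change of -2.58 (SE 0.23, adjusted p = 1.14e-08). PLT3 went from 110 ± 15.9 to 73.0 ± 12.9 CPM (SD, n = 5 each), a log2 fold change of -0.61 (SE 0.13, adjusted p = 0.000564). BBM went from 7.66 ± 2.12 to 4.11 ± 0.576 CPM with overlapping groups (log2 fold change -0.91, adjusted p = 0.00752). The calls on PLT3 and BBM were lost when libraries were scaled by total count. Those totals include the reads of the pair of mitochondrial loci, here and wherever this scaling is used below. PLT5 stood at 3.81 and 1.58 CPM, and PLT7, ANT and AT1G72570 were below 1 CPM in both groups.

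The genes for the peptides themselves fell most within the pathway. Of the 10 genes for RGF precursors and TPST, 6 were tested and 5 fell, against 24.2% of all genes tested. The low-count filter partly fixes this count, since RGF1 and RGF2 passed it through plt2. RGF3 had 154, 132, 190, 152 and 149 CPM in plt2 and 10.4, 15.1, 19.97, 15.2 and 14.7 CPM in gPLT2C212S. RGF2 had 26.2, 19.5, 31.1, 30.1 and 18.8 CPM in plt2 and 1.602, 3.14, 1.14, 2.04 and 2.16 CPM in gPLT2C212S. In both genes the groups were far apart, with log2 fold changes of -3.36 (SE 0.15, adjusted p = 4.14e-13) for RGF3 and -3.67 (SE 0.25, adjusted p = 2.79e-10) for RGF2. RGF1, the endogenous gene of the peptide supplied, had 6.39, 5.54, 13.5, 7.54 and 4.34 CPM in plt2 and 0.801, 0.314, 1.33, 0.907 and 0 CPM in gPLT2C212S. Its groups did not overlap either, although its counts were low (log2 fold change -3.35, SE 0.47, adjusted p = 6.38e-06). By the deposited FPKM, RGF3 was the most abundant of these 3 genes in plt2, and its FPKM went from 184 to 17.7. RGF8 and TPST fell less, with log2 fold changes of -0.94 (adjusted p = 0.00178) and -0.74 (adjusted p = 3.48e-05), and both calls were lost under total-count scaling. RGF4 had a log2 fold change of -0.23 and was not called (adjusted p = 0.168). RGF5 and RGF7 had at most 3.59 CPM as a group mean, RGF6 had 0.135 CPM in gPLT2C212S and none in plt2, and RGF9 had no read.

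The 5 leucine-rich repeat receptor-like kinases listed as RGF1 receptors split in direction, and all 5 were called, against 46.4% of all genes tested. AT5G48940 had 75.7, 72.3, 61.8, 67.1 and 68.5 CPM in plt2 and 195, 201, 197, 207 and 199 CPM in gPLT2C212S, and rose by 1.52 on the log2 scale (SE 0.10, adjusted p = 1.17e-10). AT3G24240 rose from 94.0 ± 12.3 to 207 ± 22.6 CPM, and AT1G34110 from 79.8 ± 13.9 to 153 ± 15.5 CPM (SD, n = 5 each). AT4G26540 had 68.4, 81.3, 78.3, 68.2 and 78.6 CPM in plt2 and 21.4, 34.5, 25.5, 34.0 and 31.6 CPM in gPLT2C212S. It thus fell without overlap between the groups (log2 fold change -1.37, SE 0.13, adjusted p = 3.68e-08). AT5G56040 fell from 115 ± 9.08 to 60.5 ± 9.47 CPM (log2 fold change -0.94, adjusted p = 1.49e-06).

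Below the receptors, changes were small. Of 13 tested genes of RGF1 signalling, 2 rose and 2 fell, and none changed by 2-fold. These counts do not exceed the shares of all genes called (22.2% higher and 24.2% lower). AT2G12646, a PLATZ-family transcription factor, rose from 20.4 ± 4.06 to 38.5 ± 4.71 CPM (log2 fold change 0.89, SE 0.14, adjusted p = 3.8e-05). MPK3, a MAP kinase, rose by 0.62 on the log2 scale (adjusted p = 0.00148). The MAP kinase kinase MKK5 and the upstream kinase YDA had log2 fold changes of -0.56 (adjusted p = 0.000444) and -0.55 (adjusted p = 0.00502), and both calls were lost under total-count scaling. The co-receptor genes SERK1, SERK2, SERK4 and BAK1, the kinases MKK4 and MPK6, the transcription factor gene UPB1, and UBP12 and UBP13, which encode ubiquitin-specific proteases, were not called, with adjusted p between 0.0824 for BAK1 and 0.996 for SERK2.

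**Figure D1:**
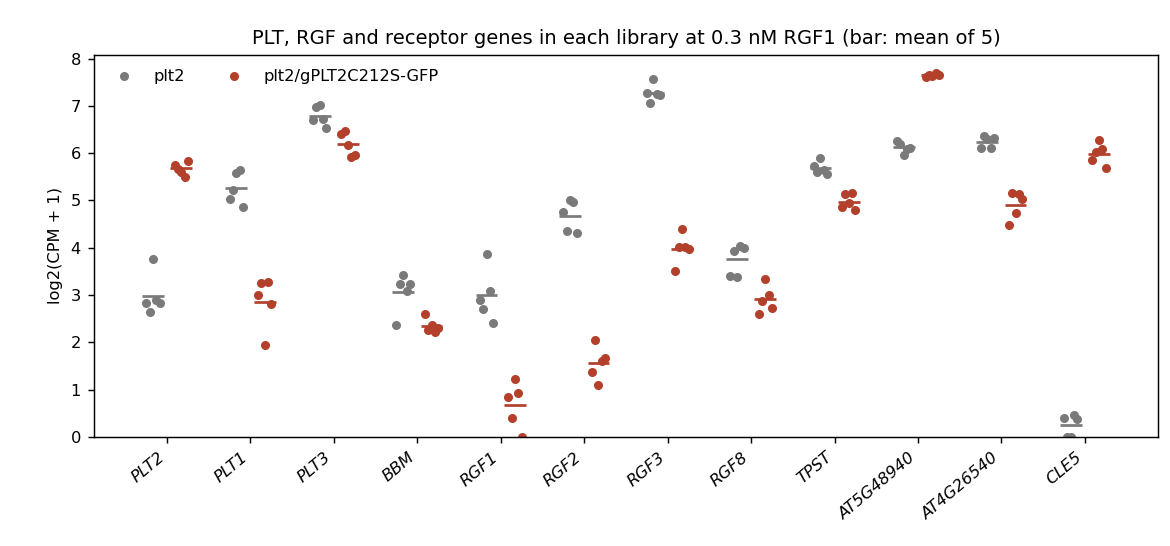
Levels of single genes in each of the 10 libraries, as log2(CPM + 1), with plt2 libraries as grey points, gPLT2C212S libraries as red points and bars for the mean of 5. PLT2 lies higher in every gPLT2C212S library, while PLT1, RGF2 and RGF3 lie lower in every one.

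In the whole comparison 3549 genes were higher in gPLT2C212S and 3879 lower, so 47.8% of calls were higher. Scaling by total count, mitochondrial reads included, moved the median log2 fold change of all genes to 0.33 and gave 76.9% of 7253 calls higher. Under that scaling 23 mitosis genes were called higher and none lower, and 7 root cap genes were called lower. At least 2-fold changes were called for 717 genes upward, 4.48% of those tested, and for 1321 downward, 8.25%. The CPM of the groups did not overlap for 4885 of 16009 genes, 30.5%. The median log2 fold change of all genes was 0.02.

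Among the largest rises was CLE5, the gene of a small signalling peptide of the CLAVATA3/ESR-related family. It had 0.32, 0, 0, 0.377 and 0.289 CPM in plt2 and 56.9, 64.0, 76.5, 67.4 and 50.2 CPM in gPLT2C212S. These are 3 reads against 1348 over the 5 libraries of each group, a ratio of 338.7 with a 95% counting interval of 115.7 to 1644.5 that covers counting error alone. Of 8 CLE genes tested of 30 listed, 4 rose (CLE2, CLE5, CLE6 and CLE41) and CLE13 fell. The low-count filter partly fixes this count, since CLE2, CLE5 and CLE41 passed it through gPLT2C212S. CLE41, a peptide of the vascular tissue, went from 1.604 to 8.67 CPM, CLE2 from 0.267 to 5.05 CPM and CLE6 from 8.30 to 21.5 CPM, while CLE13 went from 12.5 to 3.30 CPM. CLE5 and CLE6 are close paralogues, and reads that match both could be split between them.

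MLS, malate synthase of the glyoxylate cycle, had 12.8, 12.4, 9.45, 12.1 and 17.63 CPM in plt2 and 240, 241, 273, 280 and 293 CPM in gPLT2C212S. Its log2 fold change was 4.34 (SE 0.14, adjusted p = 1.07e-14). Large rises were also measured for AT3G10020, a protein without an annotated function (13.8 to 317 CPM), AT4G16563, an aspartyl protease (0.597 to 44.5 CPM), AT1G33790, a jacalin lectin (2.90 to 53.0 CPM), and AT4G36220, a ferulate 5-hydroxylase of lignin synthesis (0.376 to 9.92 CPM). The falls include EXLA2, an expansin-like gene, at 32.6, 38.8, 37.8, 32.4 and 31.8 CPM in plt2 and 0.267, 0, 0, 0 and 0.216 CPM in gPLT2C212S. That is 557 reads against 2, a ratio of 369.5 (95% counting interval 101.8 to 3058.3). Other genes nearly lost from gPLT2C212S were AT4G11190, a dirigent-like protein (21.3 to 0.366 CPM), NOGC1, a flavin monooxygenase (14.8 to 0.262 CPM), the aquaporin gene PIP2E (12.97 to 0.242 CPM), PKS2, a phytochrome kinase substrate (15.0 to 0.547 CPM), AT5G04120 (15.3 to 0.308 CPM) and AT1G17300 (21.6 to 0.423 CPM).

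Genes of mitosis and cytokinesis rose together. Of 24 tested, 21 rose, none fell, and 5 of them at least 2-fold, with a median log2 fold change of 0.70 against 0.02 for all genes. Their summed level was 529.9 to 628.1 CPM across the plt2 libraries and 845.7 to 1143.6 CPM across those of gPLT2C212S. CYCB2;4, a B-type cyclin that drives entry into mitosis, had 28.8, 26.7, 27.3, 29.0 and 27.7 CPM in plt2 and 64.3, 52.7, 86.0, 61.9 and 61.9 CPM in gPLT2C212S. KNOLLE, the syntaxin of the dividing cell plate, had 25.6, 27.4, 27.0, 27.1 and 30.6 CPM in plt2 and 56.1, 45.5, 81.6, 61.9 and 68.6 CPM in gPLT2C212S. Neither gene overlapped between the groups, and the log2 fold changes were 1.22 (SE 0.13, adjusted p = 1.32e-07) for CYCB2;4 and 1.18 (adjusted p = 6.93e-07) for KNOLLE. CYCB2;3 rose by 1.28 (adjusted p = 1.89e-07), AUR3, an Aurora kinase, by 1.31, and HINKEL, a kinesin of the phragmoplast, by 0.73. The members not called were CDKB1;1, CYCB2;1 and EDE1.

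The promoters of mitotic genes are known for the mitosis-specific activator element with the core AACGG, a target of MYB3R factors. The core was searched on both strands of the 250 bases before each annotated start. It was present in 14 of the 24 mitosis genes (58.3%) and in 22.8% of the 15389 tested protein-coding genes. Stretches of 150 bases before the start of CYCB2;3 (chr1:7137829-7137978, minus strand) and KNOLLE (chr1:2711001-2711150, minus strand) are printed from RefSeq TAIR10.1 as examples, with matches on either strand in capitals. The matches are a description of the sequence and were not tested as binding sites.
CYCB2;3: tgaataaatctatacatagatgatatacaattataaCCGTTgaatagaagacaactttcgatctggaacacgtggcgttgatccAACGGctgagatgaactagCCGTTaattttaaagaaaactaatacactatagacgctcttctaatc
KNOLLE: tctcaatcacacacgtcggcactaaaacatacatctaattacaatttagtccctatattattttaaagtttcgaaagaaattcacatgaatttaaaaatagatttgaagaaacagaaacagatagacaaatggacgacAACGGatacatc

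The other cell cycle genes moved in both directions. The counts for DNA replication and for the cyclins were near the shares of all genes called in each direction (22.2% and 24.2%). Of 18 DNA replication genes, 5 rose, such as RNR1, a subunit of ribonucleotide reductase (57.0 ± 16.6 to 108 ± 12.7 CPM, log2 fold change 0.91), and 4 fell, such as the licensing factor CDT1A (57.9 ± 6.61 to 30.4 ± 4.49 CPM, log2 fold change -0.94). PCNA1, the sliding clamp, had 90.9 and 90.7 CPM and was not called (adjusted p = 0.931). The replication counts moved with the processing: they were 9 higher and 1 lower under total-count scaling, and 1 higher and 6 lower with the mitochondrial read share as a covariate. Among 14 A- and D-type cyclins, 2 rose and 3 fell, with CYCD3;2 at a log2 fold change of 0.48 and CYCD3;1 at -0.60, the latter call lost under total-count scaling.

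Genes that restrain the cycle and promote endoreduplication include the largest falls of this group. Of 14 tested inhibitors and CCS52 activators, 4 rose and 4 fell, counts near the shares of all genes called (22.2% higher and 24.2% lower). LGO, a SIAMESE-related inhibitor of cyclin-dependent kinases, had 112, 110, 179, 89.3 and 101 CPM in plt2 and 22.2, 37.0, 27.8, 42.6 and 23.6 CPM in gPLT2C212S. SIM, the founding member of that family, had 135, 132, 220, 93.5 and 120 CPM in plt2 and 26.7, 46.8, 28.0, 59.2 and 26.6 CPM in gPLT2C212S. Both were lower in every gPLT2C212S library than in any plt2 library, with log2 fold changes of -1.96 (SE 0.19, adjusted p = 3.7e-08) and -1.92 (adjusted p = 5.72e-07). The other falls were KRP2 and CCS52A1, which activates the anaphase-promoting complex in endocycles (53.5 to 25.7 CPM). KRP4, KRP5, CCS52B and AT1G08180 rose, with log2 fold changes of 0.37 to 1.31. Of 14 genes of ribosome assembly and the nucleolus, 11 rose and none fell, with a median of 0.53. FIB1, the methyltransferase fibrillarin, rose from 218 ± 22.5 to 468 ± 25.6 CPM (log2 fold change 1.09, adjusted p = 3.59e-08).

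Root cap genes fell. All 7 tested fell at least 2-fold, with a median log2 fold change of -1.84, and their summed level was 725.7 to 1125 CPM in plt2 and 166.5 to 310.7 CPM in gPLT2C212S. CEL5, a cellulase of the outer cap, had 380, 400, 558, 352 and 301 CPM in plt2 and 119, 163, 100, 78.0 and 102 CPM in gPLT2C212S. AT4G04460, a saposin-like aspartyl protease, had 128, 84.2, 111, 141 and 113 CPM in plt2 and 18.15, 20.7, 9.70, 12.7 and 21.6 CPM in gPLT2C212S. Both genes were separated between the groups, with log2 fold changes of -1.84 (adjusted p = 2.94e-08) and -2.83 (adjusted p = 1.1e-10). The NAC factors of cap identity fell with them: SMB from 61.0 to 24.4 CPM, BRN1 from 180 to 42.5 CPM, BRN2 by 1.98 and FEZ by 1.70 on the log2 scale. No root cap gene was at 0 in any group, and whether the sections held less cap tissue was not tested.

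Markers of differentiating cell types moved in both directions. For the counts in this paragraph, the shares of all genes called were 22.2% higher and 24.2% lower. The low-count filter left 10 of 16 listed genes of root hairs and epidermis, 5 of 13 of xylem, 2 of 10 of the Casparian strip, 4 of 7 of phloem and 4 of 7 of green tissue, and low genes can pass it through the group in which they are higher, so these counts do not stand for all members. Of 10 tested genes of root hairs and epidermis, 5 fell, with RHD2, the NADPH oxidase of hair tips, going from 54.1 ± 8.82 to 14.4 ± 8.38 CPM, and none rose. WER, which specifies non-hair cells, had a log2 fold change of -0.21 and was not called (adjusted p = 0.183). Of 5 xylem and secondary wall genes, 4 rose, among them LAC4, a laccase of lignin formation (0.455 ± 0.371 to 9.54 ± 4.99 CPM), and XCP1, a protease of xylem cell death (3.98 ± 1.88 to 14.0 ± 4.96 CPM). The summed xylem level was 9.25 to 26.3 CPM in plt2 and 35.2 to 74.7 CPM in gPLT2C212S, low in both, and the part of such tissue in other results was not tested. Of the 2 Casparian strip genes tested, both rose (MYB36, its master regulator, from 4.73 to 9.65 CPM, and ESB1 from 2.17 to 5.12 CPM), and of 4 phloem genes none was called. Genes of green tissue were also low but rose in 3 of 4 cases: LHCB1.3, a chlorophyll-binding protein, went from 2.06 ± 1.72 to 18.3 ± 4.01 CPM. The summed level of the green tissue markers was 8.67 to 21.7 CPM in plt2 and 29.0 to 39.0 CPM in gPLT2C212S. Of 8 regulators of the stem cell niche and ground tissue, 3 rose by 0.36 to 0.46 on the log2 scale (SCR, MGP and NUC) and none fell. The SCR call, from 72.2 ± 11.4 to 93.2 ± 9.01 CPM (adjusted p = 0.0171), was lost without plt2 replicate 4, and the MGP call was lost with the mitochondrial covariate. GROWTH-REGULATING FACTOR genes and their cofactor rose in 3 of 8 cases, led by GRF4 (21.3 ± 4.89 to 51.0 ± 2.92 CPM) and the cofactor GIF1 (76.1 to 172 CPM), while GRF9 had a log2 fold change of -0.84 that was lost under total-count scaling. GRF8 read at 3877 CPM in plt2, far above the other members, and its value is uncertain.

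Wall and water transport genes were mostly lower, among the 14 of 29 expansins, 15 of 33 xyloglucan enzymes, 20 of 34 aquaporins and all 8 cellulose genes that passed the filter. All genes tested were called higher in 22.2% of cases and lower in 24.2%. All 8 genes of primary wall cellulose synthesis fell, with CESA6 going from 348 ± 27.0 to 140 ± 24.6 CPM (log2 fold change -1.32) and CESA1 from 457 ± 36.3 to 256 ± 21.2 CPM (log2 fold change -0.85), and 5 of the 8 were called lower under total-count scaling. Of 15 xyloglucan endotransglucosylase/hydrolase genes, whose enzymes cut and rejoin xyloglucan, 8 fell and 4 rose. XTH16 had 86.3, 57.5, 79.7, 91.9 and 98.6 CPM in plt2 and 2.94, 4.08, 4.37, 4.76 and 3.25 CPM in gPLT2C212S, the widest gap among the named wall genes after EXLA2 (log2 fold change -4.40, SE 0.18, adjusted p = 1.78e-13). XTH15 was among the 4 that rose (9.84 to 17.9 CPM, adjusted p = 0.0075). Of 14 expansins, 8 fell and 2 rose, with EXPB1 falling from 84.9 ± 11.6 to 12.3 ± 4.10 CPM. Of 20 aquaporins, 13 fell and none rose, with NIP1;1 falling from 753 ± 96.2 to 136 ± 37.8 CPM (log2 fold change -2.48, adjusted p = 6.29e-11).

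**Figure D2:**
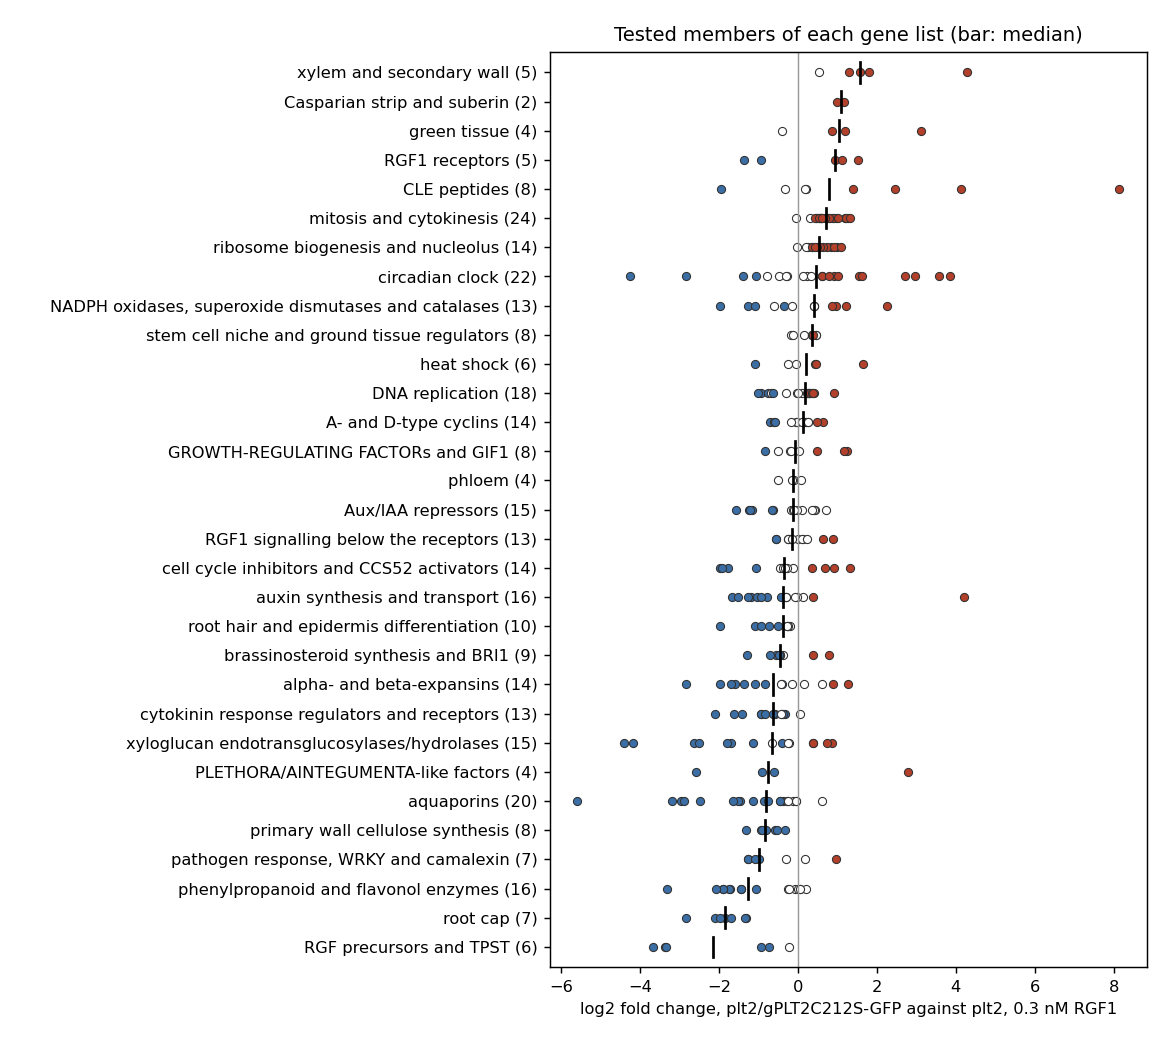
Log2 fold changes (gPLT2C212S minus plt2, 0.3 nM RGF1) of the tested genes of each list, with red (higher) and blue (lower) points for called genes, open points for the rest and a bar for the median. The genes of mitosis lie to the right of 0 almost throughout and the root cap genes to the left.

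Hormone genes were more often lower than higher. Among all genes tested, 22.2% rose and 24.2% fell. Of 13 genes of cytokinin reception and response, 10 fell and none rose, such as the response regulators ARR6 (26.0 ± 2.78 to 8.47 ± 2.11 CPM) and ARR3 (log2 fold change -2.09) and the receptor AHK4 (63.3 to 33.4 CPM). Under total-count scaling 6 were called lower. ARR8 read at 14947 CPM in plt2 and overlaps an annotated long non-coding RNA, so its value is uncertain, and it was not called. Of 16 auxin synthesis and transport genes, 9 fell and 2 rose: TAA1, which makes the auxin precursor, fell from 42.9 ± 3.53 to 13.4 ± 2.33 CPM, PIN4 fell from 56.1 to 19.9 CPM, and YUC5, with 0.271 and 5.17 CPM, rose. YUC5 passed the low-count filter through gPLT2C212S. PIN2 was not called (adjusted p = 0.563). Of 15 Aux/IAA repressors tested of 29, 6 fell, with IAA16 going from 180 ± 21.1 to 76.5 ± 8.43 CPM. Of 9 brassinosteroid genes, 6 fell and 2 rose, and only 1 was called lower under total-count scaling.

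Of 13 genes of reactive oxygen metabolism, 5 rose and 4 fell. The shares over all genes, here and for the groups that follow, were 22.2% higher and 24.2% lower. CAT1, a catalase, rose from 11.2 ± 3.37 to 54.6 ± 1.81 CPM (log2 fold change 2.27, adjusted p = 3.2e-10) and CAT2 from 114 to 268 CPM, while the copper/zinc superoxide dismutase CSD1 fell from 266 ± 14.6 to 111 ± 26.2 CPM. Flavonol and phenylpropanoid enzymes fell in 9 of 16 cases, all by at least 2-fold: CHS, the first enzyme of flavonoid synthesis, went from 391 ± 53.0 to 144 ± 53.2 CPM, F3H from 219 ± 51.9 to 59.0 ± 14.4 CPM and TT7 from 27.8 to 2.76 CPM. Among 6 heat shock genes, 3 rose and MBF1C fell. HSP90.1 rose by 0.46 (adjusted p = 0.0312), a call lost in 7 of 17 alternatives, the replicate block not counted. Of 7 pathogen response and camalexin genes, 4 fell, with WRKY6 going from 111 to 55.96 CPM, and CYP71A12 had a log2 fold change of 0.96 (adjusted p = 0.0483), also lost in 7 of 17 alternatives.

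Clock genes differed between the lines in both directions. Of 22 tested, 11 rose and 4 fell, against 22.2% and 24.2% of all genes tested. Low genes passed the filter through the group in which they were higher, such as LHY through plt2 and FKF1 through gPLT2C212S. LHY, a morning-phased repressor, had 11.5, 20.8, 17.2, 12.4 and 11.8 CPM in plt2 and 1.33, 0, 0.951, 0.680 and 0.649 CPM in gPLT2C212S (log2 fold change -4.26, SE 0.36, adjusted p = 5.18e-09). CCA1, its partner, went from 8.72 to 1.18 CPM. FKF1, an afternoon-phased light receptor, had 3.83, 1.06, 0, 0.377 and 1.73 CPM in plt2 and 19.8, 21.3, 15.8, 14.5 and 16.9 CPM in gPLT2C212S (log2 fold change 3.57, SE 0.37, adjusted p = 1.09e-07). Both genes were thus separated without overlap. ELF4 rose from 2.51 to 20.04 CPM, and TOC1 from 25.3 to 51.3 CPM. LHY, CCA1 and the evening genes oscillate over the day, harvest times are not given, and the part of harvest time in these differences was not tested.

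**Figure D3:**
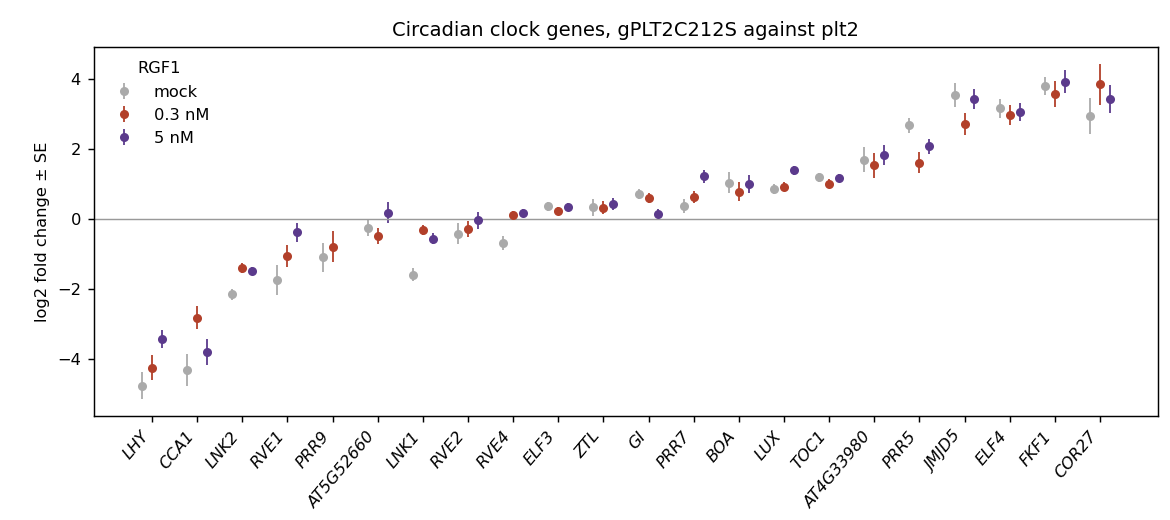
Log2 fold changes (gPLT2C212S minus plt2) with their SE for the 22 tested clock genes, in grey under mock, red at 0.3 nM and purple at 5 nM RGF1. LHY lies at -4.78, -4.26 and -3.44 and FKF1 at 3.81, 3.57 and 3.93 in that order.

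The evening element AAAATATCT, bound by CCA1 and LHY, was searched on both strands of the same 250-base windows. It was present in 6 of the 22 clock genes (27.3%) and 6 of the 11 that rose (54.5%, among them PRR5, TOC1, LUX, BOA and FKF1), against 2.37% of the tested protein-coding genes. The window of FKF1 (chr1:25508389-25508638, plus strand) from RefSeq TAIR10.1 is shown with its match in capitals, as a description of the sequence.
FKF1: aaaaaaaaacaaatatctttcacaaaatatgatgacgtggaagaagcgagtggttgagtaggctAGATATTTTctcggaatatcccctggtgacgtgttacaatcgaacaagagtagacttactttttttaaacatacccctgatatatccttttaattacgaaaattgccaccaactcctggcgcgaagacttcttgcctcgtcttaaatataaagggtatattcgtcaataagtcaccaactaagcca

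The line difference was then set beside the same comparison under mock treatment and at 5 nM RGF1, which share no library with it. Under mock, 2988 of 15998 genes were called (18.7%), 1093 higher (6.83%) and 1895 lower (11.8%). At 5 nM, 7176 of 15943 were called (45%), 3481 higher (21.8%) and 3695 lower (23.2%). Overlaps were counted among the genes tested in both comparisons, 15651 with mock and 15652 with 5 nM. Of 3409 such genes higher at 0.3 nM and 1071 higher under mock, 587 rose in both (17.2% and 54.8%), and of 3846 and 1857 lower, 1446 fell in both (37.6% and 77.9%). Of 3509 higher at 0.3 nM and 3387 higher at 5 nM, 2205 rose in both (62.8% and 65.1%), and of 3762 and 3668 lower, 2656 fell in both (70.6% and 72.4%). The share of calls that were higher was 36.6% under mock and 48.5% at 5 nM, and 11.3% and 19.4% under total-count scaling. A direct test of the difference between treatments called 1856 genes of 16833 (11%) between 0.3 nM and mock, of which 814 were higher (4.84%) and 1042 lower (6.19%) at 0.3 nM. That count was 660 with the mitochondrial read share as a covariate and 3988 under total-count scaling. Between 0.3 and 5 nM it called 469 of 16760 (2.8%), 226 higher (1.35%) and 243 lower (1.45%), a count that ran from 55 to 5728 across the alternatives. Of these interaction calls 43.9% and 48.2% were higher at 0.3 nM, and 92.8% and 98.7% under total-count scaling. Of 1741 of the genes called against mock for which both differences were fitted, 848 had the same sign at both treatments and were larger at 0.3 nM, 111 were larger under mock, and 782 had opposite signs. These signs are of the estimates, called or not, and include values near 0. Among all genes tested in both, 31 called higher at 0.3 nM were called lower under mock, and 36 called lower were called higher.

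The line difference of several groups moved with the peptide. The group counts under mock, at 5 nM and between treatments were not repeated with total-count scaling or the mitochondrial covariate. The 24 mitosis genes had no call under mock (median 0.09), 20 called higher at 5 nM, and 12 with a larger line difference at 0.3 nM than under mock. Their mean summed level under mock, 0.3 and 5 nM was 628, 573 and 673 CPM in plt2 and 650, 982 and 1099 CPM in gPLT2C212S. None of the 13 ribosome genes tested under mock was called, and 8 of 13 were higher at 5 nM. Root cap genes fell in 2 of 7 cases under mock and 7 of 7 at 5 nM, and the difference at 0.3 nM was larger than under mock for 6 of 7. For CEL5 the log2 fold change was 0.09 under mock (adjusted p = 0.67), -1.84 at 0.3 nM and -1.31 at 5 nM. PLT1 followed with -0.45 under mock, -2.58 at 0.3 nM and -1.999 at 5 nM. For RGF2 the values were -0.96, -3.67 and -3.98, and for RGF3 they were -0.997, -3.36 and -3.32. LGO had -0.64, -1.96 and -3.97, and its difference at 0.3 nM was less than that at 5 nM in the test of the treatments (interaction 2.03). Aquaporins were the contrast: 15 of 19 fell under mock, 13 of 20 at 0.3 nM and 8 of 20 at 5 nM, where 6 rose, and the test of the treatments called 7 higher at 0.3 nM than under mock and 4 lower than at 5 nM. The mean summed aquaporin level, in the same order, was 2893, 2505 and 1569 CPM in plt2 and 1044, 1399 and 1196 CPM in gPLT2C212S. Phenylpropanoid enzymes fell under every treatment (12 of 16 under mock and at 5 nM), cellulose synthesis genes fell in 7 of 8 under mock and 8 of 8 at 5 nM, and 10 of the 22 clock genes rose under mock. Those differences were thus present without the peptide.

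The smallest adjusted p values for a difference between 0.3 nM and mock belonged to AT1G57590, a pectin acetylesterase (log2 fold change -0.08 under mock, -2.91 at 0.3 nM and -4.99 at 5 nM), sks16 (0.00, -2.17 and -1.57), AT4G19460 (-0.10, -2.60 and -1.64) and XTH16 (-1.36, -4.40 and -4.97). Between the doses they were XPL1, a phosphoethanolamine methyltransferase (1.35 under mock, 0.01 at 0.3 nM and -1.34 at 5 nM), RCI3, a peroxidase (-1.46 at 0.3 nM and -3.09 at 5 nM), GATA2 (0.19 and -0.92) and AT1G57590. Genes at least 2-fold different in the same direction under all 3 treatments numbered 99 higher (0.642%) and 283 lower (1.83%) of 15426 tested in all. Examples are FKF1, ELF4, AT3G01345 and AT2G01422, which rose, and LHY, AT4G11190, AT4G22666 and AT5G46890, which fell.

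**Figure D4:**
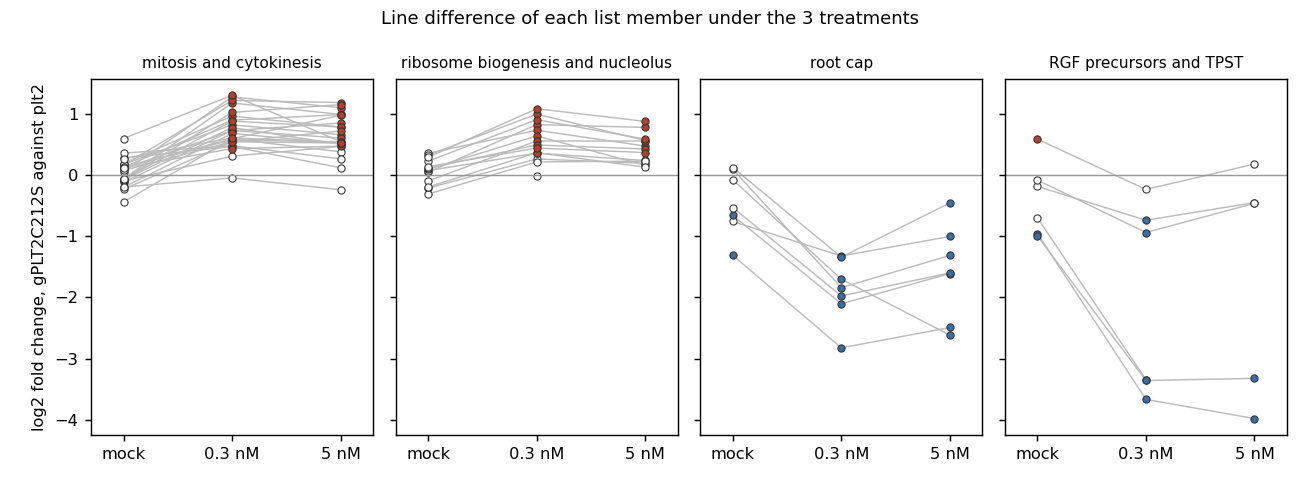
Log2 fold change (gPLT2C212S minus plt2) of each tested member of 4 lists under mock, at 0.3 nM and at 5 nM RGF1, with lines joining a gene and filled points (red higher, blue lower) for calls. The mitosis median is 0.09 under mock and 0.70 at 0.3 nM, and the root cap median is -0.53 and -1.84.

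Against the unaltered transgene at the same dose, 1187 of 16070 genes were called (7.39%), 546 higher in gPLT2C212S (3.4%) and 641 lower (3.99%). The share higher was 46.0%, and 66.8% of the 660 genes called under total-count scaling. This comparison shares its gPLT2C212S libraries with the one above, so the values are set side by side without a correlation. PLT2 stood at 34.3 ± 5.26 CPM in gPLT2 and 50.4 ± 4.65 CPM in gPLT2C212S (log2 fold change 0.55, adjusted p = 0.00695). Of the mitosis genes, 21 of 24 were higher than in gPLT2 (median 0.82), and CYCB2;4 was at 30.4 CPM in gPLT2, beside 27.9 in plt2 and 65.4 in gPLT2C212S. Root cap genes fell in 5 of 6 cases against gPLT2 (median -0.94). LGO was at 72.4 CPM in gPLT2, between 118 in plt2 and 30.6 in gPLT2C212S (log2 fold change against gPLT2 -1.25). For PLT1 the gPLT2 level was 10.4 CPM and the log2 fold change against it -0.69 (adjusted p = 0.139), and for CLE5 it was 46.9 CPM and 0.43 (adjusted p = 0.128). None of the 8 cellulose genes was called against gPLT2. AT4G26540 and AT5G56040, the receptors that fell, were at 50.7 and 95.9 CPM in gPLT2 and were lower than that in gPLT2C212S (log2 fold changes -0.79, adjusted p = 0.00105, and -0.66, adjusted p = 0.00174), while AT5G48940 was at 164 CPM and was not called (0.28, adjusted p = 0.0838). LHY and FKF1 differed from gPLT2 as they did from plt2, with gPLT2 levels of 8.19 and 2.66 CPM. AT3G01345 was higher in gPLT2 (66.6 CPM) than in gPLT2C212S (18.5 CPM).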

How the data were processed

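Total RNA from the dissected meristematic zone was sequenced after library preparation with the Universal RNA-Seq with NuQuant kit, per the labels' protocols. The authors deposited read counts per locus (36823 loci, of which 36632 matched RefSeq TAIR10.1) and FPKM. HISAT2 2.1.0, featureCounts, Subread 2.0.3, DESeq 1.34.0 and build TAIR10 are named, without roles, in the submitters' processing notes. The deposited FPKM equal counts divided by a factor per gene and a factor per library (largest log deviation 6.3e-15 over 16449 genes). Those factors were not compared with transcript lengths or size factors. The FPKM leave out 14 ribosomal RNA and organelle loci and were used for levels between genes. Counts were tested with edgeR 4.0.16 in R 4.3.3 (quasi-likelihood, filterByExpr with a minimum count of 10, TMM, Benjamini-Hochberg over all genes tested), with the 2 groups compared in each fit and 4 groups in each interaction. CPM leave out the 14 loci and use TMM factors over 47 libraries. Alternatives were DESeq2 1.42.0, RLE or total-count scaling, no filter, the 14 loci removed, the mitochondrial read share as a covariate, all libraries in one fit, a replicate block, and each library left out. On simulated counts at 0.3 nM, 163 of 200 genes changed by 1 on the log2 scale were recovered, with 12 false calls among 15818 genes. In the data 46.4% of genes were called, and error rates under so broad a difference were not simulated. The 31 gene lists (498 genes) and the 121 named genes were chosen with earlier results of these data known. Named genes are PLT2, the PLETHORA, RGF, receptor and signalling lists, the 8 largest changes in each direction without overlap and averaging 20 or more reads, the most significant and most abundant members of other lists, the 4 genes with the smallest adjusted p in each interaction, and those constant across treatments. Other genes in the text were added as list examples after their values were seen. Whether the counting used strand is not given in the sources used here, so antisense and overlapping genes cannot be separated.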

Additional observations from a re-analysis of the deposited data

Results flagged for a closer look

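Of 232 groups of libraries checked for a single value far from the rest, 11 held one, and chance alone flags about 1 group in 20. In gPLT2C212S these were MKK4 in replicate 5 (15.8 CPM), NIP1;1 in replicate 2 (202 CPM), KRP5 in replicate 4 (12.2 CPM), MBF1C in replicate 5 (40.05 CPM) and MGP in replicate 3 (58.8 CPM). In plt2 they were PLT2 in replicate 3 (12.5 CPM), SERK4 in replicate 3 (26.0 CPM), LGO in replicate 3 (179 CPM), AT4G16563 in replicate 3 (2.03 CPM), AT3G01345 in replicate 4 (1.51 CPM) and RNR1 in replicate 2 (86.3 CPM).

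The line difference at 0.3 nM RGF1 was tested against that under mock with edgeR's interaction term, and 1856 genes were called. The values that follow are the difference of the log2 fold changes, 0.3 nM minus mock, for the named genes called. Their size is imprecise where a group was near 0 reads. At 0.3 nM no plt2 library had more than 3 reads for YUC5 or CLE5. The same held in gPLT2C212S for EXLA2, AT4G11190, NOGC1 and AT5G04120. RGF7 had too few reads to be tested at 0.3 nM alone. In the PLETHORA and RGF groups they were PLT1 -2.13, BBM -1.21, RGF1 -2.66, RGF2 -2.72, RGF3 -2.38, RGF4 -0.83, RGF7 3.77 and TPST -0.57. Among receptors and signalling genes they were AT5G48940 0.72, AT4G26540 -1.11, AT5G56040 -0.74, YDA -0.61, MKK5 -0.56 and UPB1 1.58. In the cell cycle and nucleolus they were CYCB2;4 1.05, HINKEL 0.84, RNR1 0.70, CDT1A -0.92, LGO -1.34, SIM -1.29, FIB1 0.78 and NUC1 0.77. In root cap, epidermis and xylem they were AT4G04460 -1.53, CEL5 -1.95, WER -0.86 and XCP1 2.07. Among wall genes they were EXLA2 -4.86, EXPB1 -1.18, EXPA14 -0.68, XTH8 -0.80, XTH15 1.41, XTH16 -3.06, sks16 -2.18 and AT1G57590 -2.84. Hormone and growth regulators gave YUC5 4.24, TAA1 -1.30, ARR6 -1.37, GRF4 0.76, CLE5 7.13 and CLE13 -1.54. Stress, oxygen and green tissue genes gave HSP90.1 2.64, CYP71A12 3.87, WRKY6 -0.70, CAT1 1.06 and LHCB1.3 1.69. HSP90.1 stood at 41.0 to 415 CPM across the plt2 mock libraries and at 15.1 to 40.7 CPM in gPLT2C212S under mock. Its interaction was 1.64 without plt2 mock replicate 1, the highest of these, and was not called with the mitochondrial share as a covariate (1.49, adjusted p = 0.244). The remaining genes were MLS 1.49, AT3G10020 2.98, AT4G16563 4.08, AT1G33790 2.79, AT4G11190 -2.57, NOGC1 -4.73, AT1G17300 -2.70, AT5G04120 -4.22, PKS2 -2.25, CYP96A14P -2.88, AT4G19460 -2.52 and XPL1 -1.34.

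Between 0.3 and 5 nM the interaction called 469 genes, with the same limit on the sizes for EXLA2 and YUC5. The named ones, 0.3 nM minus 5 nM, were PLT2 -0.91, AT5G56040 0.55, EXLA2 -3.60, YUC5 3.13, LGO 2.03, SIM 1.40, SCR 0.58, AT1G57590 2.097, XPL1 1.37, RCI3 1.65 and GATA2 1.12.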

How the results depend on the processing

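The main comparison called 6690 to 8062 genes under the alternatives that kept all 10 libraries (mitochondrial read share as a covariate the lowest, no low-count filter the highest), and 6807 to 7487 with 1 library left out, against 7428 in the main test. Calls shared in direction with the main test ran from 70.3% under total-count scaling to 99.7% under RLE factors, and none was called in the opposite direction. Of 93 named genes called, 80 were called in every alternative other than the replicate block, which this count leaves out. Leaving out 1 library gave 2371 to 3445 calls under mock, 6544 to 7031 at 5 nM, 835 to 1357 against gPLT2, 1413 to 2282 for the interaction with mock and 204 to 802 for that between doses. The dose interaction (469 genes) moved with single libraries: without plt2 replicates 1 and 4 at 0.3 nM it called 264 and 268, without plt2 replicates 4 and 5 at 5 nM 204 and 242, without gPLT2C212S replicates 2, 3 and 4 at 0.3 nM 802, 238 and 246, and without gPLT2C212S replicates 1 and 5 at 5 nM 289 and 262. Under total-count scaling the comparison with gPLT2 gave 660 calls, and the interactions with mock and between doses gave 3988 and 5728. That scaling keeps the mitochondrial reads in the totals. With it the median log2 fold change between the lines was 0.33 at 0.3 nM, -0.20 under mock and -0.24 at 5 nM. Adding the mitochondrial share to the model left 660 and 55 interaction calls. The dose interaction gave 889 without the filter and 224 with all 47 libraries in the fit. The cause was not tested. The replicate numbers do not pair the libraries: same-numbered deviations correlated between -0.28 and 0.127 and none of the 5 gPLT2C212S libraries correlated best with the plt2 library of its own number. With the replicate number as a block the counts were 6945, 2680 and 6642 for the lines at 0.3 nM, under mock and at 5 nM, 1310 against gPLT2, and 1731 and 614 for the interactions. Of 14473 values of named genes under alternatives, none was called with the opposite sign. Low-count genes such as CLE5 in plt2 are limited by depth.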

Other observations

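The gene groups in this part were put together after their values were seen. At 0.3 nM 22.2% of all genes tested rose and 24.2% fell, and under mock 6.83% and 11.8%. Nuclear genes of light-harvesting and photosystem proteins rose in 14 cases and none fell among the 19 of 34 loci that were tested. Low members passed the filter through the group in which they were higher, so this count does not stand for all loci. PSAF, a photosystem I subunit, went from 7.59 ± 1.94 CPM in plt2 to 34.2 ± 4.14 CPM in gPLT2C212S (SD, n = 5 each), and LHCA4, an antenna protein, from 5.71 ± 2.59 to 22.2 ± 1.24 CPM. Under mock 1 of 17 rose and 3 fell, and the difference at 0.3 nM exceeded that under mock for 10 of 21. The glyoxylate cycle and peroxisomal fatty acid breakdown rose in 12 of 18 cases: ICL, isocitrate lyase, the partner of MLS, went from 14.9 ± 5.41 to 139 ± 22.3 CPM and PCK1, which opens gluconeogenesis, from 148 ± 17.7 to 276 ± 29.0 CPM, while DCI1 fell from 26.3 to 13.3 CPM. Under mock 4 of these 18 rose and 1 fell, with log2 fold changes of 2.01 for ICL and 0.93 for PCK1. The interaction for PCK1 was -0.05 (adjusted p = 0.877 by edgeR).

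Class II trehalose phosphate synthases, a family that responds to sugar status, rose in 4 of 6 cases and fell in 1 (TPS7, log2 fold change -0.29, adjusted p = 0.0399 by edgeR), with TPS8 going from 19.8 ± 6.71 to 82.4 ± 10.4 CPM and TPS11 from 9.36 to 32.8 CPM, and under mock none rose and 1 fell. Arabinogalactan proteins of the cell surface fell in 23 of 32 tested cases, of 49 loci, and 1 rose. AGP22 went from 138 ± 30.8 to 7.26 ± 3.72 CPM and FLA9 from 535 ± 78.9 to 112 ± 33.3 CPM, while AGP30 rose from 542 to 949 CPM. Under mock 22 of 31 arabinogalactan genes fell.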
